A study of Mus musculus with 36 samples.

Results

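Left-ventricular RNA of CUG960 +dox mice given both MBNL vectors (MBNL1+MBNL2) was compared with that of CUG960 +dox mice given the MBNL2 vector alone. The comparison asks what differed when the MBNL1 vector was given along with the MBNL2 vector. The libraries were chosen by their labels, 3 in each cohort, which is 6 of the 36 libraries of the series. All 6 mice had the genotype TREDT960I (Hom)/MHCrtTA (Hem), in which the cardiomyocyte-restricted Myh6 (alpha-MHC) promoter drives the rtTA that, with doxycycline (dox), switches on an RNA with 960 CUG repeats. They received dox from postnatal day 1 and throughout, AAV9 through the tail vein at 9 weeks, and were sampled at 21 weeks, 12 weeks after delivery. The MBNL2 cohort received AAV9-3XMYC-MBNL2, the MBNL1+MBNL2 cohort this vector and AAV9-3XFLAG-MBNL1, and both carried human cDNAs behind the human TNNT2 promoter, which is active in cardiomyocytes. The cohorts set beside them had the same genotype: +dox mice had dox and no vector, MBNL1 mice had dox and AAV9-3XFLAG-MBNL1, +/–dox mice were taken off dox at 9 weeks, and –dox mice never had it. Whether the amount of vector in the MBNL1+MBNL2 cohort was set per vector or in total is not given in the sources used here, so added MBNL1 and a different total of vector cannot be told apart. The paper also reports a smaller rise of total ventricular MBNL2 protein with both vectors than with MBNL2 alone. By that measure the amount of MBNL2 differed between the cohorts as well.

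Muscleblind-like (MBNL) proteins are RNA-binding proteins that set alternative splicing, polyadenylation, localization and stability of their target RNAs. In myotonic dystrophy type 1 the expanded CUG repeat RNA gathers MBNL proteins in nuclear foci and so lowers the amount that is free. In heart muscle MBNL1 and MBNL2 bind similar motifs, of which YGCY (a pyrimidine, GC, a pyrimidine) is the core.

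The deposited RSEM expected counts summed to between 57.8 and 74.5 M in the 6 libraries. The library names fall in 2 sets, called A and B here. All 3 MBNL1+MBNL2 libraries and MBNL2 replicate 3 belong to set B, and MBNL2 replicates 1 and 2 to set A. MBNL2 replicate 3 had Xist, the RNA of the inactive X chromosome, at 191.6 CPM (counts scaled to library size), against 0.392 to 2.20 CPM in the other 5. In the ventricular cohorts not compared here the third library is likewise the one of set B, and the study's sample table lists the female of each last. So library set and sex cannot be told apart in them, and genes of chromosomes X and Y were left out. Between MBNL1+MBNL2 and MBNL2, libraries of set B differ in sex-linked RNA, and without MBNL2 replicate 3 the cohorts differ in set. In bulk tissue, fewer cells of a type and less RNA per cell cannot be told apart either. Cardiomyocyte markers such as Myh6 and Ttn summed to between 54890 and 65450 CPM in the 6 libraries, with overlap of the cohorts, and lung markers were at or near 0, between 0 and 0.0514 CPM.

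Few genes differed past the threshold when MBNL1 was added to MBNL2. Of 18642 genes off X and Y, 5 passed an adjusted p below 0.05 with a fold change of at least 1.5 (0.0268% of those tested), tested by edgeR's quasi-likelihood method and adjusted after Benjamini-Hochberg. Higher with both vectors were 2 of them (0.0107%), Cdnf and Kbtbd12, and lower were 3 (0.0161%), Kcna4, Celsr1 and Cd209a. At an adjusted p below 0.05 with no limit on the fold, 10 genes passed (0.0536%), and 1542 genes had an unadjusted p below 0.05 (8.27%), 684 higher (3.67%) and 858 lower (4.6%). The 3 libraries of the cohorts did not overlap for 1121 higher genes (6.01%) and 1155 lower genes (6.2%). DESeq2 on the same counts called 30 genes, 12 higher and 18 lower, which included all 5. With the 18 ventricular libraries alone, and with these 6 alone, edgeR called 0 genes at adjusted p, while 1062 and 1091 genes had an unadjusted p below 0.05.

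**Figure D1:**
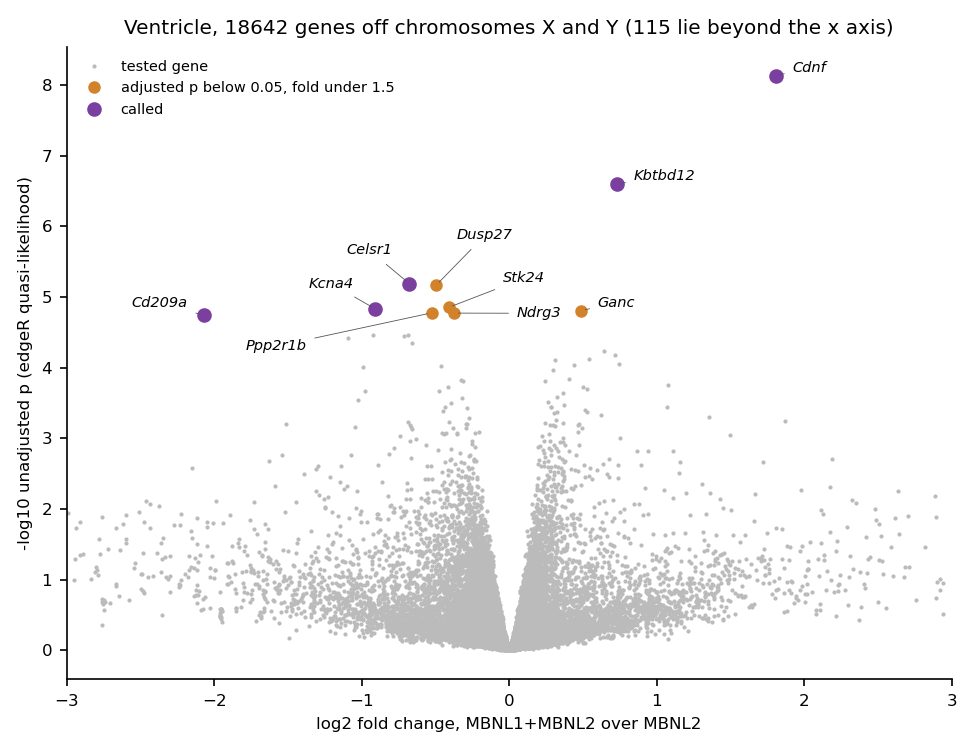
Each point is 1 of 18642 genes, with the log2 fold change of MBNL1+MBNL2 over MBNL2 on the x axis and the −log10 of the unadjusted edgeR quasi-likelihood p on the y axis. The 5 called genes are purple, and the other 5 genes with an adjusted p below 0.05 are orange. Cdnf stands highest and to the right at a log2 fold change of 1.81, and Kbtbd12 follows at 0.73.

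Since MBNL proteins bind YGCY, the 3′UTRs of the 5 called genes were searched on the sense strand for GC between a pair of pyrimidines (TGCT and TGCC, or the same with C in place of the first T), with overlapping matches counted. The 30-base window with the most matches is shown for 4 genes, with the matches in capitals, from GRCm38 with GENCODE M21 transcripts, and in Cd209a no window held more than 1. The windows lie in the last exon.
Cdnf, chr2:3524225-3524254, plus strand: tTGCCtttgcatTGCTatgacaataaTGCT
Kbtbd12, chr6:88547399-88547428, minus strand: ccTGCTcTGCTgggactcaagagtacTGCC
Kcna4, chr2:107298148-107298177, plus strand: gattCGCCtcaaaTGCTaaagcactcTGCT
Celsr1, chr15:85900629-85900658, minus strand: agaccttgaagccTGCCtgggacTGCTGCC
The 4 windows hold 3 matches each and were picked for holding the most, so their number of matches is no finding. Per 100 bases the whole 3′UTR held 1.42 matches in Cdnf, 1.84 in Kbtbd12, 0.805 in Kcna4, 1.96 in Celsr1 and 0.728 in Cd209a, against a median of 1.25 over 14381 tested genes with a 3′UTR. So the densities lie on both sides of that median. A match is a string of letters, and binding was not measured here.

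Cdnf encodes cerebral dopamine neurotrophic factor, a secreted protein that resides in the endoplasmic reticulum. It is ENSMUSG00000039496.8 at chr2:3513030-3526376, plus strand. In the MBNL2 libraries Cdnf was at 11.5, 7.28 and 7.20 CPM, and in the MBNL1+MBNL2 libraries at 43.4, 23.4 and 24.3 CPM. All 3 libraries with both vectors were above all 3 with MBNL2, and replicate 1 was the highest of its cohort in each. The log2 fold change was 1.81 ± 0.22 (SE), with an adjusted p of 0.000141 in edgeR's quasi-likelihood test. Mean Cdnf was 2.75 CPM in +dox, 27.9 in MBNL1, 35.4 in +/–dox and 35.6 in –dox ventricles. Cdnf therefore stood at 8.66 ± 2.47 CPM (SD, n = 3) with MBNL2 and at 30.4 ± 11.3 CPM with both, close to the MBNL1 cohort. It was called under 15 of 17 alternatives and lost its call in the fits of 18 and of 6 libraries.

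Kbtbd12 encodes a protein with kelch repeats and a BTB domain (ENSMUSG00000033182.12, chr6:88545114-88637950, minus strand). MBNL2 ventricles held 48.7, 40.6 and 40.03 CPM of Kbtbd12, and MBNL1+MBNL2 ventricles 91.0, 63.7 and 60.0 CPM. The cohorts did not overlap, and MBNL1+MBNL2 replicate 1 stood above the other two libraries. The log2 fold change of Kbtbd12 was 0.73 ± 0.11 (SE), with an adjusted p of 0.00241 by edgeR's quasi-likelihood test. The MBNL2 mean of 43.1 CPM was near the +dox mean of 37.7, while MBNL1 ventricles averaged 65.3 CPM and –dox ventricles 101.3. Without MBNL1+MBNL2 replicate 1, or without MBNL2 replicate 3, Kbtbd12 was not called.

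Kcna4 encodes Kv1.4, a potassium channel subunit that carries the slow part of the cardiac transient outward current (ENSMUSG00000042604.5, chr2:107290639-107298502, plus strand). It was at 3.32, 4.26 and 4.49 CPM with MBNL2 and at 1.83, 1.89 and 2.68 CPM with both vectors. All 3 libraries with both vectors were lower than all 3 with MBNL2 alone. The log2 fold change of Kcna4 was −0.91 ± 0.18 (SE; adjusted p = 0.0349, edgeR quasi-likelihood). Its means were 8.54 CPM in +dox, 2.94 in MBNL1, 1.63 in +/–dox and 1.69 in –dox ventricles, so the fall was in the direction of –dox. Kcna4 was called under 8 of 17 alternatives, and not without MBNL1+MBNL2 replicate 1 or 2 or MBNL2 replicate 2 or 3.

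Celsr1 encodes an atypical cadherin of planar cell polarity (ENSMUSG00000016028.10, chr15:85898929-86033777, minus strand). MBNL2 ventricles had 18.9, 24.0 and 25.1 CPM and MBNL1+MBNL2 ventricles 14.1, 15.3 and 13.3 CPM, with no overlap. Its log2 fold change was −0.68 ± 0.12 (SE), with an adjusted p of 0.0325 by edgeR's quasi-likelihood test. Celsr1 averaged 18.2 CPM in +dox and 25.2 in –dox ventricles, so with both vectors it lay further from –dox than with MBNL2, below the +dox mean. The MBNL1 cohort was at 16.8 CPM. Celsr1 too was called under 8 of 17 alternatives, and not without any 1 of the MBNL1+MBNL2 libraries or MBNL2 replicate 2 or 3.

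Cd209a, a C-type lectin receptor of dendritic cells and macrophages (ENSMUSG00000031494.7, chr8:3743397-3748984, minus strand), was at 0.658, 0.371 and 0.518 CPM with MBNL2 and at 0.120, 0.0917 and 0.151 CPM with both. These levels lie under 1 CPM in every library, the minimum set for naming a gene by its fold, and Cd209a is named because the called genes are so few. The log2 fold change of Cd209a was −2.07 ± 0.41 (SE; adjusted p = 0.0349, edgeR quasi-likelihood), called under 6 of 17 alternatives and, of the fits without 1 of the 6 libraries, in that without MBNL2 replicate 2. The macrophage markers summed to 299.1, 288.8 and 271.7 CPM with MBNL2 and to 258.5, 245.7 and 362.8 CPM with both vectors, so the cohorts overlapped, with Lyz2 and Csf1r the highest of the 8 markers. Csf3r and Mmp9 led a neutrophil marker list that summed to between 3.80 and 5.02 CPM with MBNL2 and between 1.72 and 3.02 CPM with both, without overlap. The part of these cells in the Cd209a result was not tested.

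**Figure D2:**
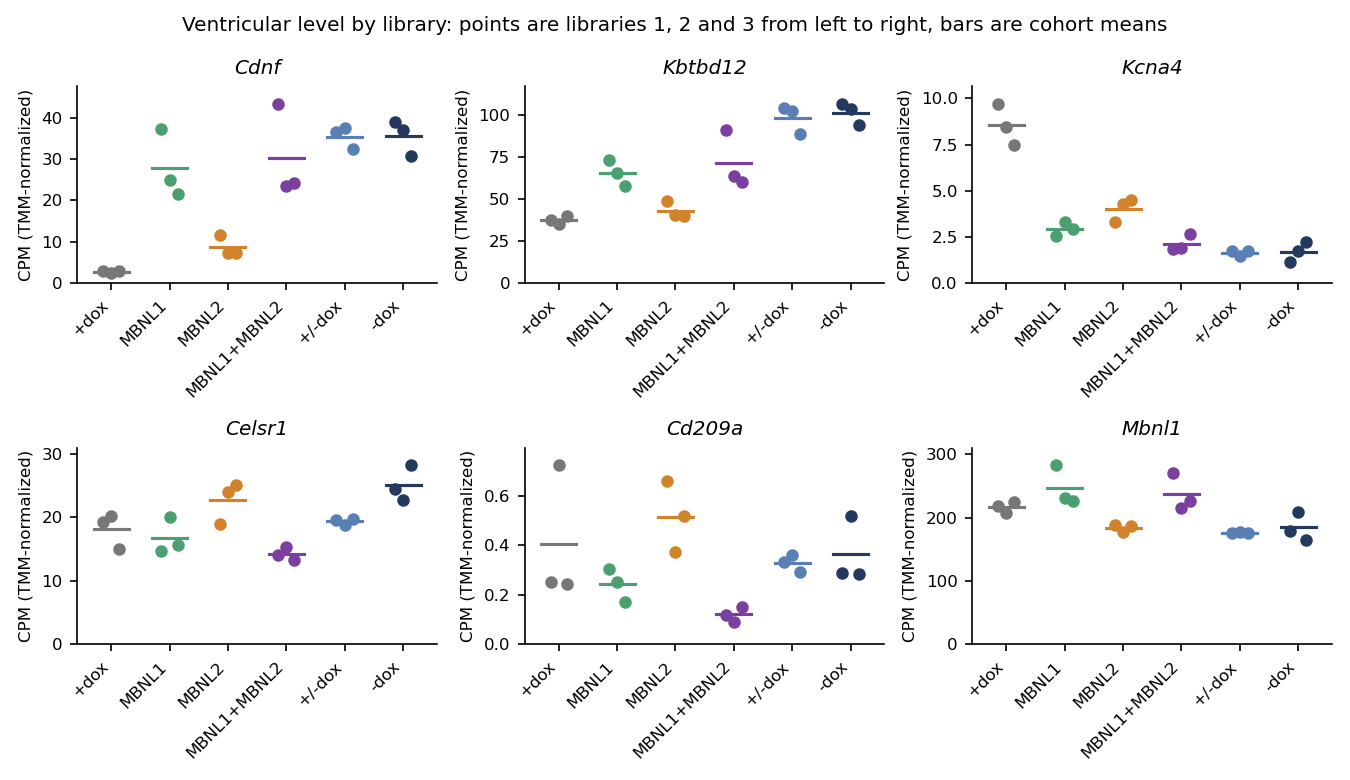
TMM-normalized CPM of the 5 called genes and of Mbnl1 in the 18 ventricular libraries, by cohort on the x axis. Points are libraries 1, 2 and 3 from left to right and bars are cohort means. Cdnf and Kbtbd12 in MBNL1+MBNL2 ventricles lie near the MBNL1 cohort, and the Kcna4 mean lies below that of MBNL1, toward –dox. Celsr1 and Cd209a have their lowest means with both vectors.

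A further 5 genes had an adjusted p below 0.05 in edgeR's quasi-likelihood test with a fold under 1.5. They are named after their values were seen. Dusp27, a phosphatase-like protein of muscle, was at 63.0, 53.7 and 58.6 CPM with MBNL2 and at 41.6, 42.9 and 39.8 CPM with both, a log2 fold change of −0.49 (adjusted p = 0.0325). Ppp2r1b, a scaffold subunit of protein phosphatase 2A, went from 11.7, 12.6 and 14.6 to 8.27, 8.95 and 9.75 CPM, a log2 fold change of −0.53. The cohorts did not overlap in either gene. Dusp27 ended at a mean of 41.5 CPM against 45.9 in –dox and 57.6 in +dox ventricles, and Ppp2r1b at 8.99 CPM against 7.78 and 21.1. Stk24, a STE20-family kinase, had a log2 fold change of −0.41, and Ndrg3, of the N-myc downstream-regulated family, one of −0.37. Ganc, a neutral alpha-glucosidase, rose from a mean of 13.5 to 18.9 CPM with a log2 fold change of 0.49. Ganc overlaps Capn3 on the same strand, and its reads may be shared with that gene. Each of these had an adjusted p of 0.0349 except Dusp27.

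Next in order of p, and not called, came lower genes such as Kif6, a kinesin, Pstpip1, a cytoskeletal adaptor, Dpysl4 of the collapsin response mediator family, and Tafa5, a secreted TAFA-family protein. Tafa5 was at 8.71, 8.15 and 9.18 CPM with MBNL2 and at 5.15, 5.48 and 5.88 CPM with both, a log2 fold change of −0.66 with an edgeR adjusted p of 0.0571. Kif6 averaged 2.72 and 1.44 CPM, with a log2 fold change of −0.92 and an edgeR adjusted p of 0.0518. The MBNL1 cohort held 6.55 CPM of Tafa5 and 2.24 CPM of Kif6, close to the +dox means of 6.69 and 2.80 CPM. So the mean levels with both vectors were below those of MBNL1, MBNL2 and +dox ventricles.

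Among the higher genes that were not called, Retsat, the retinol saturase, was at 48.2, 48.3 and 39.8 CPM with MBNL2 and at 91.5, 78.6 and 58.4 CPM with both (log2 fold change 0.74, edgeR adjusted p = 0.0817). Taf1a, a subunit of the RNA polymerase I factor SL1, had means of 4.40 and 6.88 CPM (0.64, edgeR adjusted p = 0.0696), and Lta4h, leukotriene A4 hydrolase, had means of 14.4 and 19.6 CPM (0.44, edgeR adjusted p = 0.0817). All 3 had no overlap between the cohorts, which the rule for naming uncalled genes required. Shld2, a shieldin subunit, Ccdc186 and Apip, an enzyme of methionine salvage, had log2 fold changes of 0.54, 0.31 and 0.29. Apip lay at 28.7, 27.3 and 26.7 CPM with MBNL2 and at 32.9, 35.0 and 33.5 CPM with both, with an edgeR adjusted p of 0.0857.

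DESeq2 called 25 genes beyond these 5. Of its 30 genes, 24 had the sign of the –dox against +dox difference and 28 that of MBNL1 against +dox. Over all tested genes the edgeR log2 fold changes did so in 56.9% and 51.2%. Some of the 30 rest on few reads, such as Gm2274, at 0.434, 0 and 1.54 CPM with MBNL2 and at 0 CPM with both. Kcnv2, a modifier subunit of voltage-gated potassium channels named after its values were seen, was at 10.5, 11.6 and 9.76 CPM with MBNL2 and at 30.6, 18.5 and 18.2 CPM with both. It did not overlap, and its log2 fold change was 1.09 with a DESeq2 adjusted p of 0.00463, against 0.112 in edgeR. Kcnv2 averaged 4.96 CPM in +dox, 19.5 in MBNL1 and 32.5 in –dox ventricles. Retsat, Taf1a, Kif6, Pstpip1, Dpysl4 and Tafa5 were also among the genes that DESeq2 called.

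The MBNL genes themselves checked the cohorts only in part, because the vectors carry human cDNAs and the table lists mouse genes. Mbnl1 was at 188.3, 177.9 and 186.6 CPM with MBNL2 and at 270.0, 215.1 and 226.7 CPM with both. The cohorts did not overlap, and MBNL1 ventricles were at 246.3 ± 31.2 CPM (SD, n = 3) against 216.2 ± 9.0 in +dox. The log2 fold change of Mbnl1 was 0.36 ± 0.09 (SE), with an edgeR adjusted p of 0.120. How many of these reads came from the human cDNA was not tested. Mbnl2 was at 407.8, 327.3 and 371.5 CPM with MBNL2 and at 395.1, 379.1 and 373.6 CPM with both, with overlap (log2 fold change 0.05). Per transcript length, Mbnl2 averaged 150.9 TPM with MBNL2, 136.3 with both, 100.1 in +dox and 91.6 in MBNL1 ventricles. Mbnl3, an X-linked member, averaged 0.375 and 0.360 CPM and was not tested. Dmpk, whose 3′UTR carries the repeat in myotonic dystrophy, averaged 604.4 and 605.1 CPM.

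The study followed 8 genes by RT-qPCR, a list it chose with these libraries in view, and 2 of the 8 were called here, Cdnf higher and Kcna4 lower (0.0268% of all genes). Ckmt2, the mitochondrial creatine kinase of muscle, was at 1154, 1126 and 1090 CPM with MBNL2 and at 1666, 1395 and 1321 CPM with both. Its libraries did not overlap and its log2 fold change was 0.38 ± 0.11 (SE), but its edgeR adjusted p was 0.260. Ryr2, the calcium release channel of the sarcoplasmic reticulum, was at 1480, 1430 and 1338 CPM and at 1581, 1562 and 1672 CPM, likewise without overlap, with a log2 fold change of 0.18 and an edgeR adjusted p of 0.455. Asph, the aspartyl hydroxylase and junctin locus, averaged 370.9 ± 5.3 and 384.4 ± 56.7 CPM (SD, n = 3). Its cohorts overlapped, with a log2 fold change of 0.05. Gja5, connexin 40, and Hcn4, the pacemaker channel, had log2 fold changes of −0.29 and −0.63, also with overlap. Hcn4 ranged from 10.02 to 28.8 CPM with both vectors and from 19.4 to 44.6 CPM with MBNL2.

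The place of a cohort between +dox and –dox can be given on the log2 scale, with the +dox mean at 0% and the –dox mean at 100%. For Cdnf the MBNL2 ventricles were at 43.6 ± 10.5% and the MBNL1+MBNL2 ventricles at 92.3 ± 13.6% (SD, n = 3), beside 89.6% in the MBNL1 cohort. For Kbtbd12 the values were 13.3 ± 11%, 63.3 ± 22.8% and 55.2%, and for Kcna4 46.3 ± 9.8%, 85.0 ± 12.6% and 65.2%. These 3 genes were nearer to –dox with both vectors than with MBNL2 alone. Ckmt2 was at 55.8 ± 2.4% with MBNL2, 77.8 ± 10.3% with both and 70.4% with MBNL1, and Ryr2 at 34.0 ± 7.7%, 52.9 ± 5.5% and 40.7%. Asph, at 46.0%, 41.1% and 40.3%, differed by less than the spread of the MBNL1+MBNL2 libraries. Ppp2r1b stood at 49.3 ± 11.5% with MBNL2, 85.7 ± 8.2% with both and 45.6% with MBNL1.

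Small differences in the direction of –dox ran through many genes. Of 18642 genes, 1410 (7.56%) were called between –dox and +dox ventricles, a comparison that shares no library with MBNL1+MBNL2 against MBNL2. Of these, 1062 (75.3%) differed in the direction of –dox when MBNL1 was added to MBNL2, with a median log2 fold change of 0.16 toward –dox. Over all 18642 genes, 56.9% did so with a median of 0.03, and over those not called 55.4%. The 760 genes called lower in –dox (4.08%) held 81.8% with that direction and a median of 0.21, and the 650 called higher (3.49%) 67.7% and a median of 0.09. The median log2 difference between –dox and +dox over the 1410 genes was 0.96 in size, so the shift from MBNL2 to both vectors was small beside it. Of the 1410, 207 had an unadjusted p below 0.05 in the direction of –dox and 8 in the opposite direction, and 3 were called, Cdnf, Kbtbd12 and Kcna4.

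Each library gives a value for the same 1410 genes, the median of its log2 distances from the +dox mean, signed toward –dox. It was 0.425, 0.348 and 0.359 in the MBNL2 libraries and 0.668, 0.507 and 0.395 in the MBNL1+MBNL2 libraries. The cohorts overlapped, since MBNL1+MBNL2 replicate 3 lay below MBNL2 replicate 1, and replicate 1 was the highest with both vectors. The MBNL1 libraries were at 0.460, 0.481 and 0.421, within the range of the MBNL1+MBNL2 libraries, and the +/–dox and –dox libraries lay between 0.696 and 0.956. The median of 0.16 ranged from 0.0871 without MBNL1+MBNL2 replicate 1 to 0.2205 without its replicate 3, and was 0.18 within library set B.

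**Figure D3:**
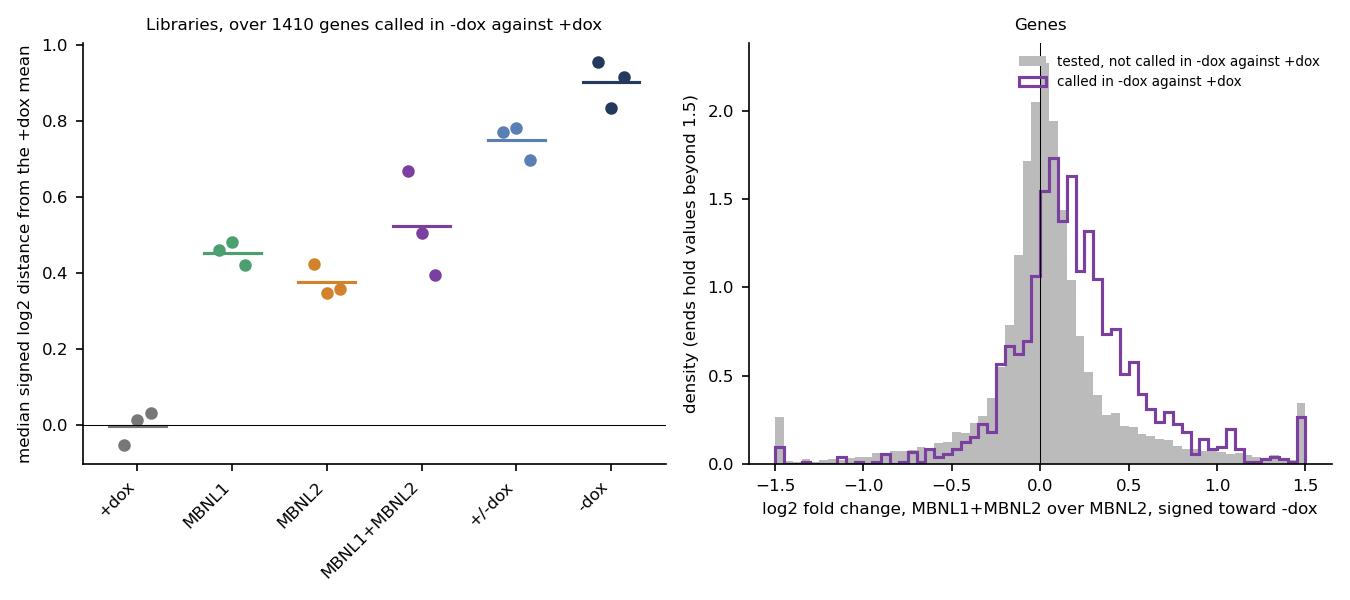
Left, the median log2 distance of each ventricular library from the +dox mean, signed toward –dox, over 1410 genes called between –dox and +dox, with 3 points and a mean bar for each cohort. The MBNL1+MBNL2 libraries lie between 0.395 and 0.668 and overlap the MBNL2 libraries at 0.348 to 0.425. Right, the density of the log2 fold changes of MBNL1+MBNL2 over MBNL2, signed toward –dox, for these genes (line) and for all other tested genes (grey), with the line displaced to the right.

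The genes that differed with MBNL1 given alone, against mice with no vector, were read in the same way. Against +dox, MBNL1 ventricles had 499 called genes (2.68%), or 317 without MBNL1 replicate 1 (added after seeing the data), with 221 of them shared. This library lists 16876 genes above 0, against 20550 to 23993 in the other ventricular libraries, and the part of this in the calls was not tested. This comparison also shares no library with MBNL1+MBNL2 against MBNL2. Of the 499, 356 (71.3%) had the same direction when MBNL1 was added to MBNL2, with a median log2 fold change of 0.19 in that direction, against 51.2% and 0.0059 over all tested genes. Without MBNL1 replicate 1 the share was 73.5% of the 317. Among fits without 1 library it was lowest without MBNL1+MBNL2 replicate 1, at 60.1% of 526 called genes, where the median was 0.0726. It was 63.2% of 494 without MBNL2 replicate 2, and highest without +dox replicate 3, at 76.5% of 383. All 10 genes with an adjusted p below 0.05 had the direction of MBNL1 against +dox, and 9 of them that of –dox against +dox, with Celsr1 the exception.

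Whether MBNL1 did the same with and without MBNL2 was tested as an interaction in edgeR. This is the log2 fold change of MBNL1+MBNL2 over MBNL2 minus that of MBNL1 over +dox. The +dox mice had no vector, so in the second difference MBNL1 and a vector as such cannot be told apart. Library set, and sex by the study's sample table, were balanced in that difference but not in the first. The interaction was called for 84 genes (0.451%), 33 with a positive (0.177%) and 51 with a negative difference (0.274%). These 84 were chosen for this difference, so their separate log2 fold changes are a description. Of the 84, 46 were called in MBNL1 against +dox, and 1, Cdnf, had an adjusted p below 0.05 when MBNL1 was added to MBNL2. In 73 the estimates had opposite signs, but with MBNL2 these are the signs of differences that did not pass the test. The median size was 0.28 with MBNL2 and 0.61 without it. The count was unstable: it was 7 without MBNL2 replicate 1, 9 without MBNL1+MBNL2 replicate 3, 19 without its replicate 2 and 429 without its replicate 1. Without MBNL1 replicate 1 it was 94, of which 44 were among the 84.

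Cdnf was among the 84, with a log2 fold change of 1.81 when MBNL1 was added to MBNL2 and 3.34 when it was added to no vector, an interaction of −1.54 ± 0.31 (SE; edgeR adjusted p = 0.0215). The +dox libraries held 2.76, 2.51 and 2.99 CPM of Cdnf and the MBNL1 libraries 37.2, 25.01 and 21.5 CPM. So the MBNL1 and MBNL1+MBNL2 cohorts overlapped in level, while the MBNL2 cohort stood above +dox. Ckmt2 followed the same order, with 593.8, 560.4 and 594.8 CPM in +dox and 1343, 1413 and 1247 CPM in MBNL1 libraries. Its log2 fold change was 0.38 with MBNL2 and 1.19 without it, an interaction of −0.82 ± 0.16 (SE; edgeR adjusted p = 0.0147). Each was called in 9 of 12 fits that left out 1 ventricular library.

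Other members of the gene lists whose interaction was called were Clcn1, the muscle chloride channel, Hdac9, a class IIa histone deacetylase, Bhlhe40, a repressor of the clock, and Pdlim7, a Z-disc adaptor. Clcn1 had an interaction of −2.20 (edgeR adjusted p = 0.00889) whose adjusted p was below 0.05 in all 12 such fits and at most 0.0431, without MBNL1+MBNL2 replicate 3. No MBNL1 library held more than 0.870 CPM of it, and the +dox libraries held 0.169 to 0.273 CPM. MBNL2 ventricles held 0.574, 0.594 and 1.081 CPM of Clcn1 and MBNL1+MBNL2 ventricles 0.771, 0.495 and 0.484 CPM, which overlap. Pdlim7 was at 26.2, 16.9 and 18.6 CPM with MBNL2 and at 20.5, 18.1 and 15.9 CPM with both, also overlapping, while it was at 11.9, 13.3 and 6.97 CPM in +dox and 21.4, 20.5 and 19.3 CPM in MBNL1 ventricles. The interaction of Pdlim7 was −1.10, that of Bhlhe40 −1.13 and that of Hdac9 0.76, and they were called in 7, 5 and 7 of the 12 fits.

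**Figure D4:**
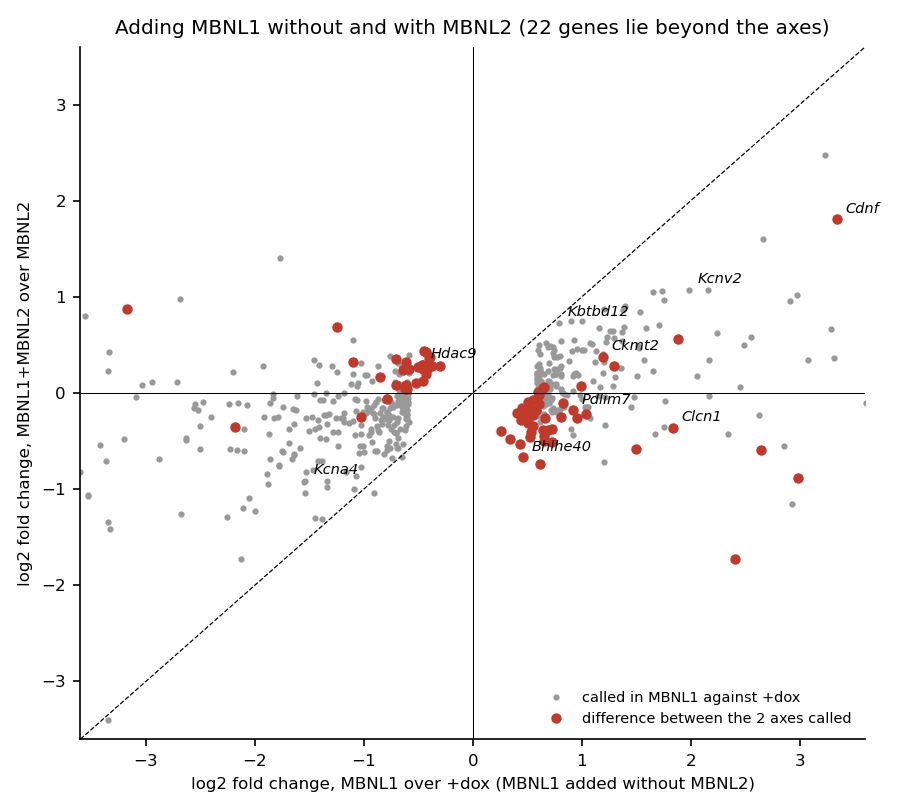
Log2 fold change of MBNL1 over +dox on the x axis and of MBNL1+MBNL2 over MBNL2 on the y axis. Grey points are genes called in MBNL1 against +dox, red points the 84 genes whose difference between the axes was called, and the dashed line marks equal change. Points between the horizontal axis and the dashed line had the same direction and a smaller size with MBNL2, Cdnf at 3.34 and 1.81 among them.

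The other gene lists were described by how many members differed and by their median, beside −0.01 over all tested genes. Genes of fatty acid uptake and oxidation leaned higher: 39 of 42 had a log2 fold change above 0, with a median of 0.16, and none was called. Unadjusted p was below 0.05 for 9 of the 42, all higher, against 3.67% of all genes in that direction, and 13 did not overlap in that direction, against 6.01% of all genes. Lpl, the lipoprotein lipase, was at 2707, 2859 and 2596 CPM with MBNL2 and at 3295, 3406 and 3158 CPM with both, a log2 fold change of 0.27 and an edgeR adjusted p of 0.228. Hadhb, of the mitochondrial trifunctional protein, was at 1362, 1342 and 1295 CPM and at 1777, 1619 and 1451 CPM. Both were without overlap. Cd36, the fatty acid transporter, had a log2 fold change of 0.28 and Fabp3, the heart fatty acid binding protein, 0.17, the latter with overlap. The median of this list was 0.12 to 0.23 with 1 of the 6 libraries left out and 0.24 within library set B. In MBNL1 against +dox it was 0.16, and in –dox against +dox 0.38, where 11 of its 42 members and 3.49% of all genes were called higher.

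Of the 13 genes of mitochondrial DNA, all had a log2 fold change above 0, with a median of 0.18. Unadjusted p was below 0.05 for 6, against 3.67% of all genes in that direction. Their summed levels overlapped between the cohorts. In the atria of the same cohorts the median was −0.10, with 2 of the 13 above 0. mt-Cytb had a log2 fold change of 0.16 and mt-Co1, a cytochrome oxidase subunit, one of 0.09, both with overlap of the cohorts. The 45 nuclear genes of the respiratory chain had a median of 0.07, with the synthase subunits Atp5a1 and Atp5b at 0.01 and 0.03. Among 25 heat shock and atrophy genes the median was 0.11 and 6 were higher at an unadjusted p below 0.05, against 3.67% of all genes. Cryab, the small heat shock protein alpha B-crystallin, was at 1399, 1313 and 1275 CPM with MBNL2 and at 1710, 1681 and 1472 CPM with both (log2 fold change 0.29, edgeR adjusted p = 0.148), without overlap. Hspb7, a cardiac small heat shock protein, overlapped at a log2 fold change of 0.08.

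Structural and contractile lists lay near 0. The 50 genes of the sarcomere and Z-disc had a median of 0.02, with the myosin heavy chain Myh6 at −0.02 and titin, Ttn, at 0.19. The 33 calcium handling genes had a median of −0.02, with the calcium pump Atp2a2 at −0.06 and its inhibitor Pln at 0.17. Of 39 ion channel and connexin genes Kcna4 was called, against 0.0268% of all genes, and the median was −0.07. The 27 genes of the fetal programme had a median of −0.12, with Myh7, the slow myosin heavy chain, at −0.20 and Ankrd1, a stress-responsive ankyrin repeat protein, at 0.27. The 33 splicing regulators had a median of −0.01, with Qk at 0.02 and Hnrnpa2b1 at 0.07. For 33 genes of glucose use the median was 0.03, with Aldoa and Gapdh, both of glycolysis, at 0.06 and 0.05. For 19 clock genes it was −0.08, with the transcription factors Tef and Nr1d2 at 0.02 and −0.04. For 31 genes of ATF4 and the unfolded protein response it was −0.04, and Cdnf was called, against 0.0268% of all genes. Kcna4 and Cdnf are also on the RT-qPCR list above, so these calls are not separate results.

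Some lists leaned lower with both vectors but not within library set B, where MBNL2 replicate 3 is the lone MBNL2 library. All 35 genes of the type I interferon response had a log2 fold change below 0, with a median of −0.63, yet the median was 0.19 within set B. Over the 6 libraries, unadjusted p was below 0.05 for 10 of them, against 4.6% of all genes in that direction. Their summed level was 463.5, 417.0 and 292.6 CPM with MBNL2 and 293.0, 247.9 and 299.4 CPM with both, so MBNL2 replicate 3 lay among the MBNL1+MBNL2 libraries. Parp14, an interferon-induced ADP-ribosyltransferase, had a log2 fold change of −0.43. Cell cycle genes behaved alike, with a median of −0.28 over 36 genes and 0.22 within set B. Their most abundant member Ccnd2, cyclin D2, was at 189.0, 249.2 and 215.1 CPM and at 133.8, 181.0 and 166.5 CPM, without overlap (log2 fold change −0.44, edgeR adjusted p = 0.325), and Ccnd3 had a log2 fold change of −0.15. Genes of fibrosis and extracellular matrix had a median of −0.31 over 41 genes and −0.04 within set B, with Dcn, decorin, at 0.09 and Col4a1, a basement membrane collagen, at −0.09. None of these lists held a called gene. With a library set term in the fit of the 18 ventricular libraries, the medians were −0.83 for the type I interferon response, −0.20 for the cell cycle and −0.22 for fibrosis and extracellular matrix, all below 0. Between set B and set A in the 4 cohorts not compared here, the interferon genes had a median difference of 0.41, with 33 of 35 higher in set B, the opposite sign to −0.63. In those cohorts the set B library is replicate 3, and the study's sample table lists the female last. Within set B a single MBNL2 library, which differs from the others in sex-linked RNA, carries the comparison, so library and sex cannot be told apart there.

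Interferon-induced GTPases and antigen presentation genes had medians of −0.49 and −0.33, which were −0.54 and −0.74 within set B. Their sums overlapped, with 320.9, 344.2 and 476.6 CPM against 359.1, 282.1 and 181.2 CPM for the GTPases. Irgm2 and Iigp1, GTPases of the defence against intracellular pathogens, had log2 fold changes of −0.83 and −0.45, and the class I genes H2-D1 and B2m −0.40 and −0.58. B2m did not overlap, but no gene of these lists had an unadjusted p below 0.05. Immediate early genes had a median of −0.29, with all 23 below 0, Jun at −0.14 and Klf6 at −0.12. Their sum was 537.1, 410.3 and 368.0 CPM with MBNL2 and 413.0, 324.6 and 345.5 CPM with both, highest in MBNL2 replicate 1. Atf3, a stress-induced transcription factor named after its values were seen, was at 19.3 CPM in that library, at 3.98 and 4.75 CPM in the other MBNL2 libraries and at 2.90 to 3.01 CPM with both.

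**Figure D5:**
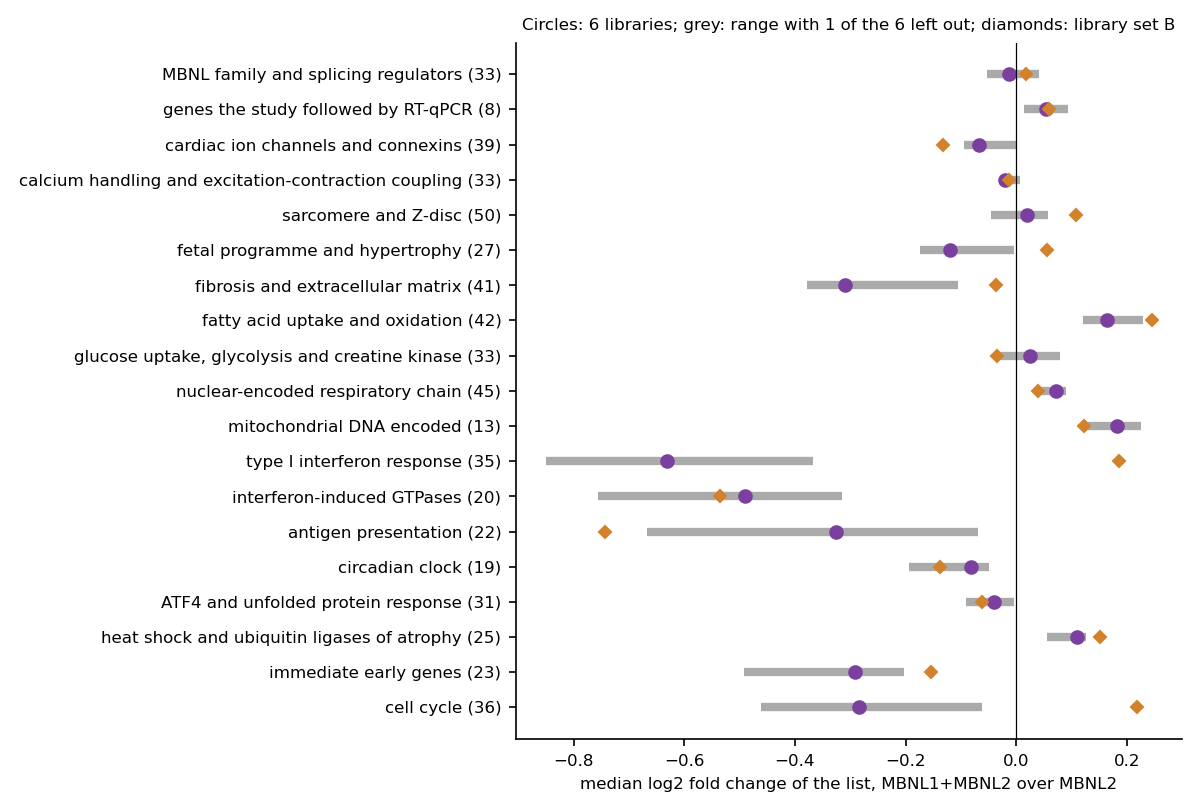
Median log2 fold change of MBNL1+MBNL2 over MBNL2 on the x axis for each of the 19 pathway lists, with the number of tested genes in brackets. Circles are the medians over the 6 libraries, grey bars the range with 1 of the 6 left out, and diamonds the medians within library set B. The fatty acid list lies to the right of 0 in all of these, while the type I interferon and cell cycle lists lie at −0.63 and −0.28 over the 6 libraries and at 0.19 and 0.22 within set B, where MBNL2 has 1 library.

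Markers of other cells moved in part with the cohorts. Smooth muscle and pericyte markers had a median of −0.58 over 7 genes. Unadjusted p was below 0.05 for 4, all lower, against 4.6% of all genes in that direction. The markers summed to 754.4, 623.4 and 661.9 CPM with MBNL2 and 617.2, 569.9 and 577.6 CPM with both. The 4 were Cspg4, Myh11, Tagln and Cnn1, while Pdgfrb, with Rgs5 among the most abundant of the list, had a log2 fold change of −0.15. The sums did not overlap, but taken singly 0 of the 7 markers were without overlap. Fibroblast markers, led by Gsn and Dcn, had a median of −0.05 and endothelial markers, led by Fabp4 and Kdr, one of 0.02. Red blood cell genes, Hba-a1 and Hbb-bs first, summed to 564.5, 689.9 and 133.0 CPM and to 345.7, 34.1 and 535.9 CPM, with overlap. Atrial markers such as Nppa and Myl4 summed to 205.3 to 486.6 CPM and to 193.4 to 454.0 CPM, and ventricular markers such as Myl2 and Myl3 differed by a median of 0.07. The lists of T cells, B cells, adipocytes, nerve cells and mesothelium had sums of under 21 CPM in every library, and their medians were −0.35, −0.58, −0.16, −0.08 and −1.82. Their part in the results was not tested.

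Library set was measured together with sex in the 4 other ventricular cohorts, where replicate 3 belongs to set B and replicates 1 and 2 to set A. Between the sets 137 of 18642 genes were called, 92 of them higher in B, and none of the 5 genes called here was among them. With so few genes in both groups, the lack of overlap says little about library set. The set difference of Cdnf was −0.21, of Kbtbd12 −0.13 and of Celsr1 −0.07, opposite to or smaller than the difference with both vectors, and that of Kcna4 was 0.12 and of Cd209a −0.61. With a library set term in edgeR, Cdnf and Kbtbd12 kept their call, while Celsr1 (adjusted p = 0.0652), Kcna4 (adjusted p = 0.1025) and Cd209a (adjusted p = 0.249) were not called. In the other cohorts set B is replicate 3, the place of the female in the study's sample table, while the MBNL1+MBNL2 libraries are of set B with low Xist. So the term cannot isolate library set. Within set B, MBNL2 has 1 library, which has high Xist. There the log2 fold changes were 2.07 for Cdnf, 0.83 for Kbtbd12, −0.83 for Celsr1, −1.07 for Kcna4 and −2.07 for Cd209a.

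Per the study's sample table, the atria came from the same mice as the ventricles. The edgeR fit treated all 36 libraries as independent, since the labels do not tie a library to a mouse. The atria of the same cohorts showed 2 called genes (0.0107%), both higher with both vectors. Atrial Cdnf was at 4.77, 4.06 and 4.93 CPM with MBNL2 and at 13.99, 9.53 and 14.4 CPM with both, a log2 fold change of 1.46 (edgeR adjusted p = 0.00830), with no overlap. The other was Slco2b1, an organic anion transporter, with a log2 fold change of 0.70 in atria and 0.04 in ventricles. Atrial log2 fold changes of Kbtbd12, Kcna4, Celsr1 and Cd209a were 0.50, −0.44, −0.28 and −0.09, of the same sign as in ventricles and none called. The difference between ventricle and atria, tested as an interaction in edgeR, was called for 0 genes (0%), also by DESeq2, with 786 genes at an unadjusted p below 0.05 (4.22%). For Cd209a this difference was −1.98, with an unadjusted edgeR p of 0.000779 and an adjusted p of 1.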

How the data were processed

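Poly(A) RNA libraries (TruSeq stranded, 250 ng of RNA, paired 150-cycle reads) were sequenced by the authors, who used STAR 2.7.10b to align them to mm10 and RSEM 1.3.1 for levels of mouse genes. Whether RSEM counted by strand is not given in the sources used here. The deposited expected counts carry no normalization for library size and were rounded to whole numbers. The deposited TPM values, scaled per transcript length by the authors, served only to compare Mbnl2 between cohorts. Samples were grouped by their labels, which number the replicates but tie no replicate of one cohort to that of another.

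Genes were tested by the quasi-likelihood method in edgeR 4.0.16 (R 4.3.3, limma 3.58.1, TMM normalization, robust dispersions, filterByExpr), with 1 mean for each of 12 groups over 36 libraries. It tested 19231 genes, and the 589 on X or Y were left out after adjustment. Genes were called at a Benjamini-Hochberg adjusted p below 0.05 and a fold of at least 1.5. CPM are TMM-normalized. DESeq2 1.42.0, other library subsets, filters, scalings, a library set term, replicate blocks and fits without single libraries were alternatives. The code was tested on simulated data. Coordinates came from GENCODE M21 on GRCm38, with 96.4% of symbols matched.

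Named genes were Mbnl1, Mbnl2, Mbnl3, Dmpk and the RT-qPCR genes, up to 10 genes per direction with at least 1 CPM and no overlap between cohorts (called genes first, then by p), and from each list the called members or else the 2 most abundant. The comparison, lists and named genes were chosen with earlier results of these data known. Each cohort had 3 animals. In the fit of 36 libraries, p-values rest on a spread pooled over all cohorts and both tissues, not on the compared animals alone. In fits of the ventricular libraries alone and of the compared libraries alone, edgeR called 0 genes in MBNL1+MBNL2 against MBNL2. Splicing, reads and the human cDNAs were not analysed here. A few genes that the naming rule selects are not reported here.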

Additional observations from a re-analysis of the deposited data

Results flagged for a closer look

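The interaction test of edgeR found a difference for 84 genes between MBNL1+MBNL2 over MBNL2 and MBNL1 over +dox. Since +dox mice had no vector, MBNL1 and a vector as such cannot be told apart in the second comparison. The interaction of Ckmt2 was −0.82 and that of Cdnf −1.54 on the log2 scale, with edgeR adjusted p-values of 0.0147 and 0.0215, and in both genes the log2 fold change was smaller with MBNL2. For Cdnf the adjusted p was highest without MBNL1+MBNL2 replicate 3 among the 12 ventricular libraries left out in turn, at 0.0858, and for Ckmt2 likewise, at 0.0742. The count of 84 was 7 without MBNL2 replicate 1 and 429 without MBNL1+MBNL2 replicate 1.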

How the results depend on the processing

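Against 5 called genes in MBNL1+MBNL2 over MBNL2, the number was 0 with 18 ventricular libraries and 0 with the 6 compared, 30 by DESeq2, 19 with a library set term, 31 within library set B (added after seeing the data), 10 by adjusted p alone, 13 with the replicate block over 36 libraries and 1 with it over 6. The 5 genes were all among the 30 of DESeq2 and the 13 of the block, 2 of them (Cdnf, Kbtbd12) among the 19 and 3 among the 31. Leaving out single libraries gave 1 to 14 genes. It was 1 without MBNL2 replicate 3, 3 without MBNL1+MBNL2 replicate 2 and 11 without its replicate 3, and, among libraries outside the comparison, 14 without MBNL1 replicate 1, 13 without +dox replicate 3 and 11 without MBNL1 replicate 3. Deviations of same-numbered replicates from their cohort means had correlations of −0.0746, −0.0195 and −0.0564. With 3 libraries per cohort this cannot decide whether samples are paired, and the labels pair none.

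The interaction count of 84 was 251 by DESeq2, 51 without the filter, 137 by adjusted p alone and 7 to 429 without single libraries. Beside those named above, it was 32 without +dox replicate 3, 41 without +dox replicate 1 and 42 without MBNL2 replicate 3. The 2 atrial genes became 10 by DESeq2, 6 with the replicate block, and 0 to 2 without single libraries (0 without MBNL1+MBNL2 replicate 1 or 3 or MBNL2 replicate 1, and 1 without MBNL2 replicate 2). Of the median toward –dox, every alternative stayed within the spread of the libraries.

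Genes near 0 changed sign. Without single libraries Mbnl2 ranged from −0.029 (without MBNL2 replicate 2) to 0.13, Asph from −0.053 (without MBNL1+MBNL2 replicate 3) to 0.16 and Dmpk from −0.11 to 0.083. Dmpk was −0.0045 without the filter, −0.0012 with the replicate block over 36 libraries, −0.013 within set B, −0.00019 without MBNL1 replicate 1, −0.11 without MBNL1+MBNL2 replicate 1 and −0.037 without MBNL2 replicate 1. The causes were not tested. Of the alternatives for all results and named genes, 417 kept direction and side of the threshold, 36 were weaker and 32 stronger. Genes under 1 CPM, such as Cd209a and Clcn1, rest on few reads.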
